A study of Mus musculus with 18 samples.

Results

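The genes described here mark microglia, the resident macrophages of the brain parenchyma, and the macrophages of the brain's borders. The list holds 47 genes, given by name. Each gene was read through probes that carry its symbol alone. A probe was kept where its detection p, which compares its signal with that of negative control beads, was under 0.05 on at least 9 of 18 arrays. The brightest kept probe stood for the gene. Of the 47 genes 46 had at least 1 probe and 38 passed the detection filter, among 11465 genes measured in all.

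The arrays hold RNA from the subventricular zone (SVZ), the neurogenic niche along the lateral ventricles, of 9 Tam-Idh1-KI and 9 control mice. All were c57bl6 mice that received daily intraperitoneal tamoxifen at 50 mg/kg for 5 days at 5 to 6 weeks of age. Tam-Idh1-KI mice carry 1 conditional Idh1 allele (Idh1 R132H, the glioma-associated mutation) and the transgene Nes-Cre ER(T2). Its nestin promoter drives recombination in neural stem and progenitor cells and in other nestin-positive cells, while microglia and macrophages arise from a different lineage. Controls were paired littermates, also given tamoxifen, with wild-type *Idh1*, with or without the Cre transgene. The conditional allele is described by the study as leaky, that is, partly active without Cre. The labels call the mice T1 to T9 and C1 to C9. In each group 6 arrays were hybridised on day 1, from mice of 5 to 6 months, and 3 on day 2, from mice of 7 to 9 months. On day 1 T2 to T6 were 5 months old and T1 was 6, while C1 to C4 and C6 were 6 and C5 was 5. Most day 1 controls were thus older than most day 1 Tam-Idh1-KI mice. There were 5 females and 4 males among Tam-Idh1-KI mice, and 3 and 6 among controls. On day 2 all 3 Tam-Idh1-KI mice were female, against 1 of 3 controls.

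Microglia seed the brain in the embryo and then renew themselves, under signals through the CSF1 receptor and the transcription factors PU.1 and IRF8. At rest they sense nucleotides through P2Y receptors and neuronal fractalkine through CX3CR1, and they supply most of the complement factor C1q in the brain. TREM2, the Fc receptors and their ITAM adaptors carry signals for phagocytosis. Border-associated macrophages of the meninges, perivascular spaces and choroid plexus share much of this programme and add scavenger and mannose receptors. In the SVZ microglia lie among the dividing progenitors and clear dying cells.

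Values are log2 signals after background correction and quantile normalization with limma's neqc. A difference between genotypes is the coefficient of genotype in a limma fit with hybridisation day and sex, given as a log2 fold change with its standard error (SE). P-values were adjusted over all 11465 genes by the Benjamini-Hochberg method, with a threshold of 0.05. Levels of different genes come from different probes and were not set against each other. The signal came from bulk tissue, in which fewer cells of a type and less RNA per cell cannot be told apart.

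Between 44.6% and 50.9% of probes were detected on each array, and the arrays' log2 values correlated at 0.958 to 0.991. *Idh1* itself ran from 8.82 through a median of 9.44 to 9.73 in Tam-Idh1-KI mice and from 9.26 through 9.78 to 10.03 in controls, a log2 fold change of -0.37 (SE 0.10, adjusted p = 0.212). Its probe was not shown to tell the mutant from the wild-type transcript. Of 10 neural stem cell and progenitor markers 8 passed the detection filter, as did 9 of 12 ependymal markers. Markers of astrocytes (10 of 10), neurons (10 of 12), oligodendrocytes (9 of 10) and endothelial cells (11 of 12) were detected as well.

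The markers that define microglia were present in every sample. *Aif1* (IBA1), *Cx3cr1*, *Csf1r*, *P2ry12*, *Tmem119*, *Siglech* and *Fcrls* were detected on all 18 arrays. Border macrophage genes were detected less widely. Of 6 such genes *Mrc1* was detected on 18 arrays, *Cd163* on 14 and *F13a1* on 9, while *Pf4* was detected on 3, *Lyve1* on 1 and the best probe of *Ms4a7* on 7. The same held for class II genes of antigen presentation. *H2-Ab1* was detected on 16 arrays and *Cd74* on 10, against 6 for *H2-Eb1* and 1 for *H2-Aa*. The remaining genes that did not pass were *C3ar1*, the C3a receptor (0 arrays), *Ptprc*, the leukocyte antigen CD45 (at most 2 arrays for any of 4 probes), and *Cd37*, a leukocyte tetraspanin (8 arrays). *Cd68* had no probe. For these genes no fold change is given.

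None of the 38 measured genes passed the test between genotypes. Across all genes 20 passed, 0.174% of those tested (11 higher and 9 lower in Tam-Idh1-KI mice), or 8 with the replicate number as a block. At an unadjusted p under 0.05 stood 2 of the 38, *Mrc1* and *Fcrls*, or 5.26%, against 9.57% of all genes. The study's methods name unpaired t-tests as its general default, without reference to the arrays, and this test, called the methods' t-test here, called 0 of the 38 genes, with 0 at an unadjusted p under 0.05. The smallest adjusted p of the list was 0.508. In none of the 38 genes were the ranges of the 9 Tam-Idh1-KI and 9 control mice apart, as they were in 0.0349% of all genes.

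Most of the coefficients were nonetheless small and positive. Of the 38 genes 33 were above 0, with a median log2 fold change of 0.15, from -0.29 for *Spi1* to 0.52 for *Mrc1*. Over all genes 54.5% were above 0, with a median of 0.013. Many of the 38 were high or low together in the same mice, so that their signs are not separate observations. The split also moved with the scaling. With median scaling in place of quantile normalization 81.5% of all genes and 37 of the 38 were above 0, the medians were 0.12 and 0.24, and only *Spi1* stayed below 0. The plot of coefficients by gene group shows how far the intervals reached across 0.

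**Figure D1:**
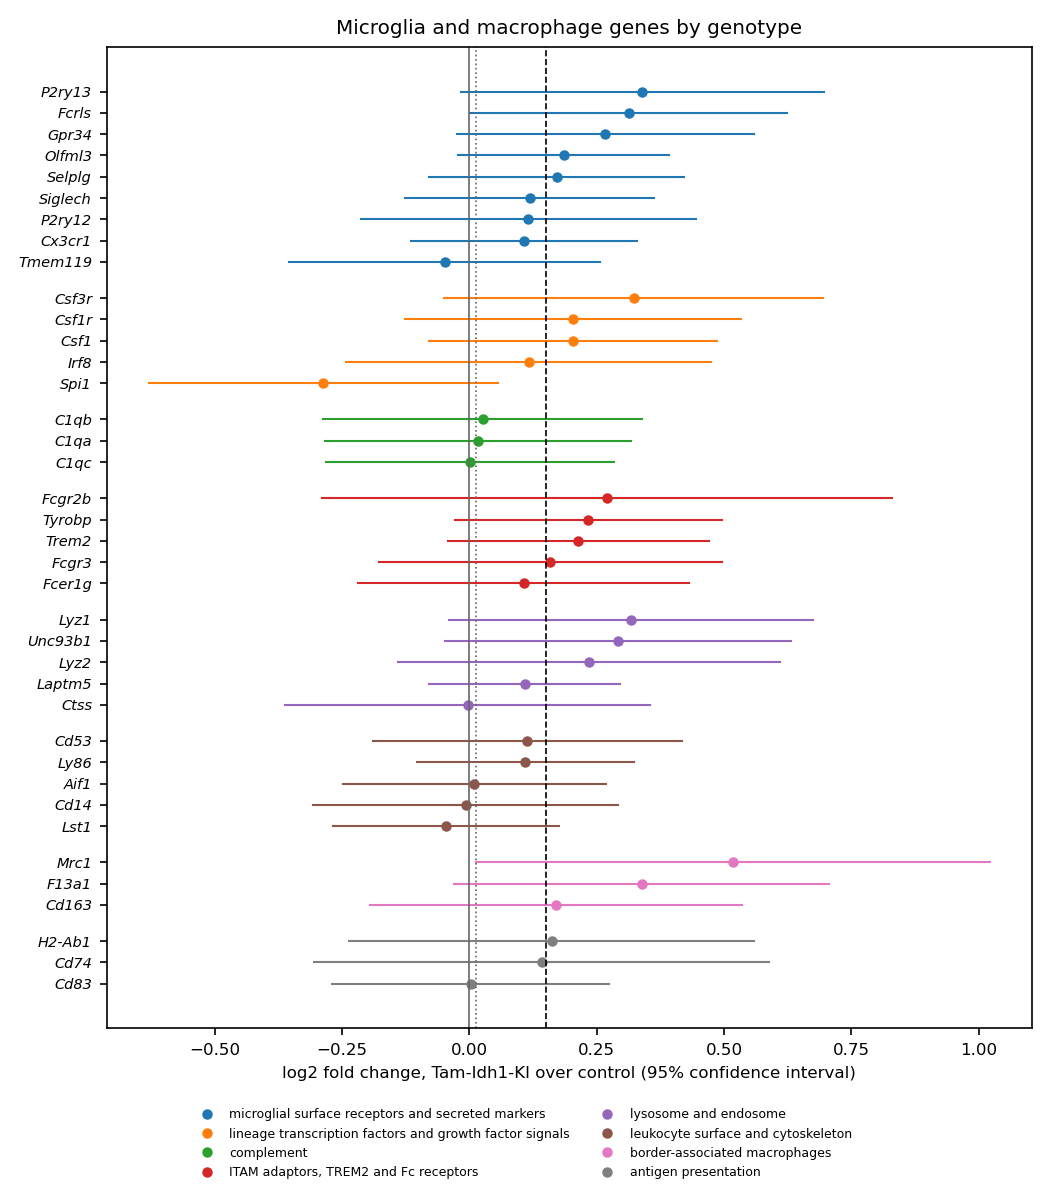
Log2 fold change of Tam-Idh1-KI over control for the 38 measured microglia and macrophage genes (points, with 95% confidence intervals from the limma fit), in colour by gene group. The solid line is 0, the dotted line the median of all 11465 genes (0.013) and the dashed line the median of the 38 (0.15). All intervals but those of *Mrc1* and *Fcrls* hold 0.

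Among surface receptors and secreted proteins of homeostatic microglia 8 of 9 coefficients were positive and none passed, with a median of 0.17. *P2ry13*, an ADP receptor, ran from 7.34 through a median of 8.63 to 8.92 in Tam-Idh1-KI mice and from 7.63 through 8.21 to 8.79 in controls. The log2 fold change was 0.34 (SE 0.17, adjusted p = 0.554), and 8 of 9 Tam-Idh1-KI mice lay above the control mean of their day. The exception, T1, held the lowest value of all 18 mice.

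*Fcrls*, an Fc receptor-like scavenger receptor found on mouse microglia, ran from 9.96 through 10.77 to 11.61 in Tam-Idh1-KI mice and from 10.08 through 10.30 to 11.04 in controls. Its log2 fold change was 0.31 (SE 0.15, unadjusted p = 0.0492, adjusted p = 0.519). Within days the means differed by 0.38 and 0.16. *Gpr34*, a lysophosphatidylserine receptor, ran from 7.27 through 7.93 to 9.49 against 7.11 through 7.71 to 9.10, a log2 fold change of 0.27 (SE 0.14, adjusted p = 0.584). In both genes 7 of 9 Tam-Idh1-KI mice were above the control mean of their day, and the ranges of the groups overlapped widely.

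The genes most used to define microglia differed less. *Cx3cr1*, the fractalkine receptor, ran from 9.77 through 10.35 to 10.82 in Tam-Idh1-KI mice and from 9.83 through 10.28 to 10.55 in controls (log2 fold change 0.11, SE 0.11, adjusted p = 0.844). *P2ry12*, the ADP receptor that guides microglial processes to injury, ran from 7.34 through 8.07 to 9.28 and from 7.09 through 8.01 to 9.13 (0.12, SE 0.16, adjusted p = 0.899). *Tmem119*, a transmembrane protein used as a microglia marker, ran from 7.59 through 8.24 to 8.91 and from 7.83 through 8.32 to 8.95 (-0.049, SE 0.15, adjusted p = 0.965). Its interval, from -0.35 to 0.26, was on both sides of 0, as was that of *P2ry12*, from -0.21 to 0.44. *Siglech*, a sialic acid-binding lectin, *Selplg*, the P-selectin ligand, and *Olfml3*, a secreted olfactomedin-like protein, had log2 fold changes of 0.12 (SE 0.12), 0.17 (SE 0.12) and 0.18 (SE 0.099).

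Of the 5 genes of lineage control and growth factor signalling 4 had positive coefficients, and none passed. *Spi1* encodes PU.1, the master factor of the myeloid lineage. It was detected on 5 of 9 Tam-Idh1-KI and 6 of 9 control arrays, ran from 4.69 through 5.31 to 5.55 against 4.96 through 5.66 to 5.97, and had the lowest coefficient of the list (-0.29, SE 0.16, adjusted p = 0.631). Only 1 of 9 Tam-Idh1-KI mice lay above the control mean of its day, at signals close to background.

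*Csf1r*, the receptor that keeps microglia alive, ran from 8.45 through 9.14 to 9.49 in Tam-Idh1-KI mice and from 8.49 through 8.98 to 9.28 in controls (0.20, SE 0.16, adjusted p = 0.767). *Csf1*, a ligand of that receptor, had the same coefficient of 0.20 (SE 0.13). *Csf3r*, the granulocyte colony-stimulating factor receptor, ran from 5.36 through 5.74 to 6.14 against 4.79 through 5.43 to 6.32 (0.32, SE 0.18, adjusted p = 0.613). It was detected on 8 Tam-Idh1-KI and 5 control arrays, and the control range held all 9 Tam-Idh1-KI values. *Irf8*, the partner of PU.1 in microglial development, stood at 0.12 (SE 0.17).

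No difference between genotypes was detectable in the C1q genes. C1q, which starts the classical complement cascade and tags synapses and cell debris, is built from A, B and C chains. *C1qa* ran from 8.57 through 9.22 to 9.35 in Tam-Idh1-KI mice and from 8.61 through 9.03 to 10.14 in controls (log2 fold change 0.017, interval -0.28 to 0.32). *C1qb* ran from 9.59 through 11.04 to 11.29 and from 9.75 through 10.88 to 11.59 (0.026, interval -0.29 to 0.34). *C1qc* ran from 9.58 through 10.74 to 10.90 and from 9.52 through 10.49 to 11.35 (0.0016, interval -0.28 to 0.28). The intervals reached to 0.28, 0.32 and 0.34, so a difference of the size estimated for *P2ry13* lay at or just past their edge. Without a sex term, the differences within days ran opposite ways. They were -0.097, -0.092 and -0.083 on day 1 and 0.15, 0.29 and 0.20 on day 2 for the A, B and C chains. No interaction with day passed.

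For ITAM signalling all 5 coefficients were positive, with a median of 0.21, and none passed. *Tyrobp*, the adaptor DAP12 that carries signals for TREM2, ran from 8.25 through 8.80 to 9.12 in Tam-Idh1-KI mice and from 8.02 through 8.47 to 9.07 in controls (0.23, SE 0.12, adjusted p = 0.600). *Trem2*, a lipid-sensing receptor, ran from 8.12 through 8.57 to 9.08 and from 7.92 through 8.31 to 9.05 (0.21, SE 0.12, adjusted p = 0.631). In each of these 7 of 9 Tam-Idh1-KI mice lay above the control mean of their day. *Fcgr2b*, the inhibitory Fc receptor, had the widest error of the list (0.27, SE 0.27), with values from 5.50 to 7.45 in Tam-Idh1-KI mice and from 5.39 to 7.15 in controls. *Fcgr3*, an activating Fc receptor, and *Fcer1g*, the adaptor of Fc receptors, stood at 0.16 (SE 0.16) and 0.11 (SE 0.15).

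Among lysosomal and endosomal genes 4 of 5 coefficients were positive. *Lyz1*, a lysozyme, ran from 8.94 through 10.09 to 10.82 in Tam-Idh1-KI mice and from 9.07 through 9.54 to 10.07 in controls (0.32, SE 0.17, adjusted p = 0.602). Of the 9 Tam-Idh1-KI values 2 lay within the control range, 5 above it and 2 below. *Lyz2*, its neighbour and near-identical copy, stood at 0.23 (SE 0.18), and a probe of either may also read the other, so the 2 values are uncertain and not separate. *Unc93b1*, which escorts Toll-like receptors to endosomes, stood at 0.29 (SE 0.16), and *Laptm5*, a lysosomal membrane protein of haematopoietic cells, at 0.11 (SE 0.089). *Ctss*, the protease cathepsin S, ran from 7.39 through 8.04 to 9.30 against 7.34 through 8.27 to 9.18 (-0.0029, SE 0.17).

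Of the leukocyte surface and cytoskeletal genes 3 of 5 had positive coefficients and none passed, with a median of 0.0099. *Aif1*, the actin-bundling protein IBA1 by which microglia are usually stained, ran from 7.82 through 8.40 to 8.56 in Tam-Idh1-KI mice and from 8.05 through 8.27 to 8.85 in controls (0.0099, SE 0.12, interval -0.25 to 0.27). *Cd14*, the lipopolysaccharide co-receptor, ran from 6.10 through 6.46 to 6.96 and from 5.98 through 6.54 to 6.80 (-0.0074, SE 0.14). *Lst1*, a leukocyte transmembrane protein, ran from 7.86 through 8.17 to 8.71 and from 8.06 through 8.20 to 8.69 (-0.047, SE 0.11). In these 3 genes the groups lay over one another. *Cd53*, a leukocyte tetraspanin, and *Ly86*, the MD-1 partner of a Toll-like receptor homologue, both stood at 0.11 (SE 0.14 and 0.10).

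Border-associated macrophage genes held the highest coefficient. *Mrc1*, the mannose receptor CD206, ran from 5.65 through 6.23 to 7.31 in Tam-Idh1-KI mice and from 5.24 through 5.98 to 6.71 in controls. The log2 fold change was 0.52 (SE 0.24, interval 0.013 to 1.02, unadjusted p = 0.0449, adjusted p = 0.508), a 1.43-fold difference. T3, T4 and T9, at 6.95, 7.26 and 7.31, stood above all controls, and the other 6 lay within the control range. With 1 array left out at a time the coefficient ran from 0.37 (without T4) to 0.65 (without T1).

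*F13a1*, the factor XIII A chain that border macrophages and monocytes make, was detected on 7 Tam-Idh1-KI and 2 control arrays. It met the filter of 9 arrays mainly through Tam-Idh1-KI mice, so its positive sign is no independent support. It ran from 4.92 through 5.49 to 6.16 and from 4.57 through 5.06 to 5.90 (0.34, SE 0.18, adjusted p = 0.583). *Cd163*, the haemoglobin-haptoglobin scavenger receptor, ran from 5.20 through 5.86 to 6.91 and from 4.99 through 5.72 to 6.79 (0.17, SE 0.17, adjusted p = 0.855). The genes of this group that did not pass the filter were detected on few arrays, counted here as Tam-Idh1-KI against control. The counts were 5 against 2 for *Ms4a7*, a membrane protein of border macrophages, and 3 against 0 for *Pf4*, a chemokine. For *Lyve1*, the hyaluronan receptor, they were 1 against 0. *Pf4* and *Lyve1* were thus mostly at background in both groups, and *Ms4a7* in controls. Such counts give no direction. Mean signals of *Pf4* and *Lyve1* were higher in Tam-Idh1-KI mice on day 1 and lower on day 2 (4.88 against 5.08 and 4.49 against 4.56). Among other listed genes that did not pass, the counts were 3 against 5 for *Cd37*, 0 against 1 for *H2-Aa* and 3 against 3 for *H2-Eb1*. For the best probe of *Ptprc* they were 2 against 0. Markers of leptomeningeal fibroblasts, which line the same borders, stood beside these values. Of 11 such markers 5 were measured, 3 of them positive, with *Ogn* (osteoglycin) at 0.87 (SE 0.20, adjusted p = 0.111) and *Mgp* (matrix Gla protein) at -0.54 (SE 0.16). Their mean deviation ran from -0.64 to 0.72 in Tam-Idh1-KI mice and from -0.31 to 0.22 in controls, and their part in the macrophage values was not tested.

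The measured antigen presentation genes did not pass either. *Cd74*, the invariant chain of class II molecules, ran from 4.74 through 5.39 to 6.15 in Tam-Idh1-KI mice and from 4.73 through 5.17 to 6.10 in controls (0.14, SE 0.21, adjusted p = 0.913). *H2-Ab1*, a class II beta chain, ran from 5.15 through 5.94 to 6.59 and from 5.20 through 5.80 to 6.42 (0.16, SE 0.19, adjusted p = 0.878). *Cd83*, an immunoglobulin-family protein that stabilises class II molecules, ran from 7.72 through 8.20 to 8.64 and from 7.60 through 8.04 to 8.48 (0.0031, SE 0.13). The intervals of the first 2 genes were wide, from -0.30 to 0.59 and from -0.24 to 0.56.

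The list varied more between mice than an average gene did. Within a genotype and day the median standard deviation (SD) over the 38 genes was 0.31 in Tam-Idh1-KI and 0.32 in control mice, against 0.22 in each group over all genes. Part of that spread was shared by many genes of the same mouse, though how large a part was not estimated. T1 lay above the control mean of its day in 6 of 38 genes and held the lowest deviation of all 18 mice in 10 genes. At the other end T4 lay above in 33 genes and held the highest deviation in 9. Among controls C3 was above the mean in 31 genes, and held the highest deviation in 10, while C1 and C7 were above in 9 and 10. Of all genes measured, 48.0% lay above that mean in T1, 56.7% in T4, 52.2% in C3, 44.8% in C1 and 49.5% in C7.

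Averaged over the 38 genes, the deviation of a mouse from the control mean of its day ran from -0.19 (T1) through a median of 0.17 to 0.37 (T4) in Tam-Idh1-KI mice. In controls it ran from -0.17 (C1) through 0.025 to 0.29 (C3). Of the 9 Tam-Idh1-KI mice 7 were above 0, all but T1 and T8, and the ranges of the groups overlapped. The difference between group means, without a sex term, was 0.14 on each day, while the SD between mice of a genotype and day was 0.17. On day 2 that difference set 3 female Tam-Idh1-KI mice against 1 female and 2 male controls. By gene group the number of Tam-Idh1-KI mice above 0 was 8 for surface and secreted markers and for border macrophage genes, 7 for lysosomal and for antigen presentation genes, and 3 for C1q. The border macrophage mean includes *F13a1*, which met the detection filter mainly through Tam-Idh1-KI arrays. The plot of mean deviations shows the spread of these means by mouse and day.

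**Figure D2:**
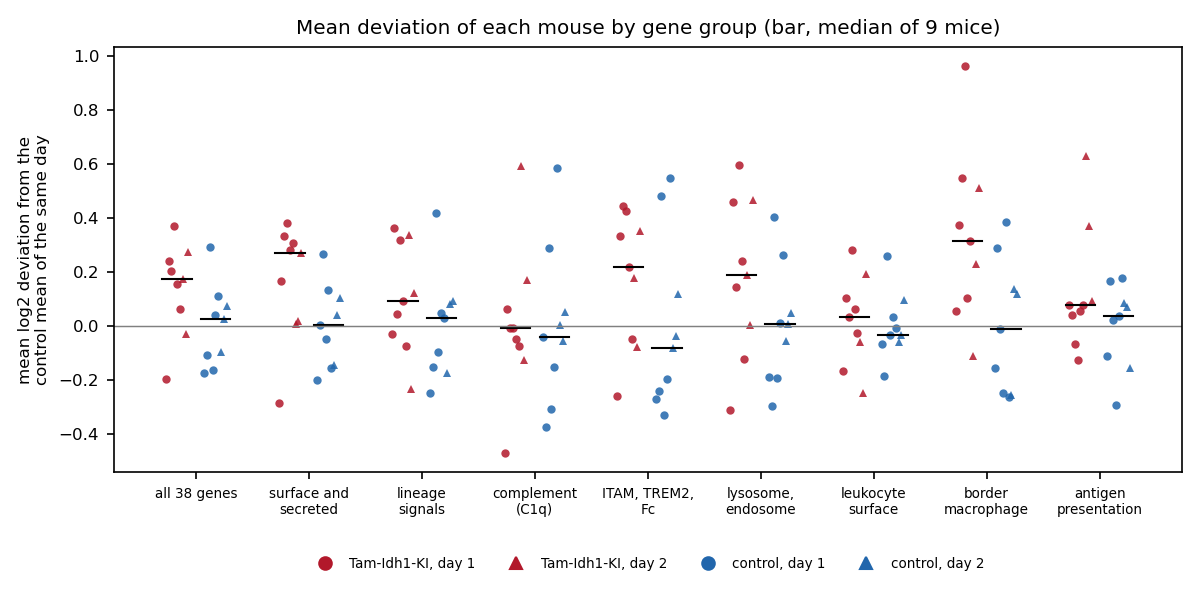
Mean log2 deviation of each mouse from the control mean of its hybridisation day, over all 38 genes and over each gene group. Circles are day 1 and triangles day 2, red marks Tam-Idh1-KI and blue control, and bars are medians of 9 mice. The groups overlap in every column, with T1 at -0.19 and T4 at 0.37 in the first.

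With T1 left out 11 of the 38 genes had an unadjusted p under 0.05, and with C3 left out 9 did, against 2 with all mice. Without T4, C1 or C7 the number was 0. None of the 38 passed after adjustment in any of these fits, and the median log2 fold change of the list stayed between 0.10 and 0.20 whichever array was left out. A single high or low mouse thus decided how many genes approached the threshold, as the map of deviations shows.

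**Figure D3:**
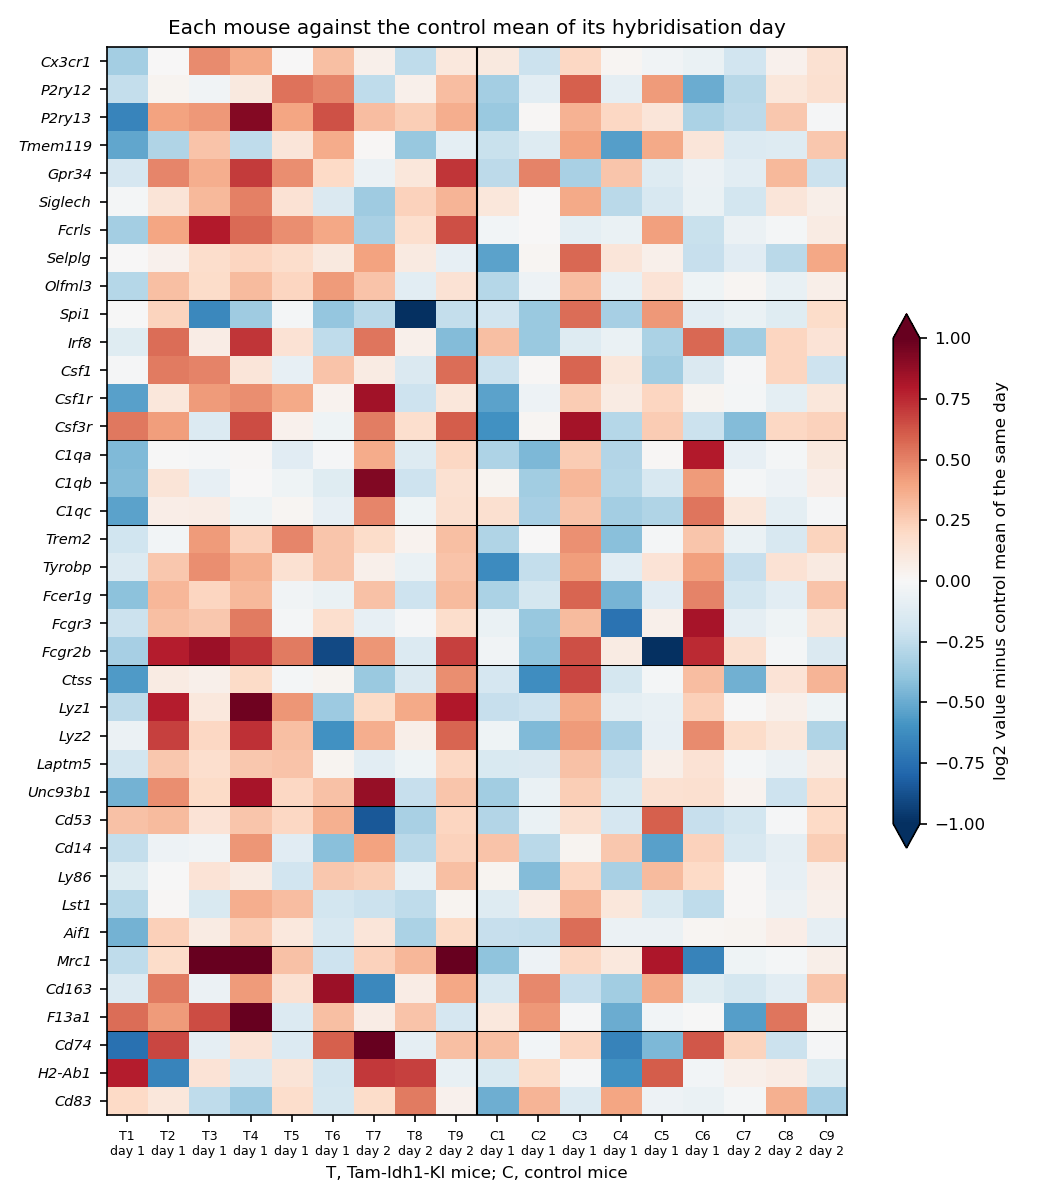
Log2 value of each measured gene in each mouse minus the mean of the controls hybridised on its day, red above and blue below, with lines between the gene groups and between genotypes. The colour scale ends at 1 either way. T1 and C1 are mostly blue and T4 and C3 mostly red, above in 33 and 31 of 38 genes.

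C1q chains moved together within mice. T7, at 9.07 for *C1qa*, 10.72 for *C1qb* and 10.10 for *C1qc*, was the highest of the 6 mice of day 2 for each chain. C6 held the highest value of all mice for each chain, at 10.14, 11.59 and 11.35. T1 was the lowest of the 6 Tam-Idh1-KI mice of day 1 for each, at 8.89, 10.73 and 10.29. C3 and C6 also held the highest control deviations for the ITAM group, at 0.48 and 0.55. Other lists that varied by mouse included the lone measured neutrophil marker, *S100a8*, which C3 also held highest among controls (1.15 above the control mean of its day), and monocyte and dendritic cell markers, for which C3 stood at 0.66. Their part in the values of C3 was not tested.

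The hybridisation day was a larger source of variation than genotype. Between days 21 of the 38 genes passed the test, 55.3%, against 63.8% of all genes. On day 2 11 were higher, where 36.8% of all genes were, and 10 were lower, where 27.1% were. Microglia and macrophage genes were thus called no more often than genes at large. Day 2 mice were also the older ones, so that hybridisation day and age cannot be told apart. All 21 kept the same sign in the 9 control and in the 9 Tam-Idh1-KI mice taken alone. In 8 of the 38 genes the ranges of the 12 arrays of day 1 and the 6 of day 2 did not overlap, against 27.7% of all genes, and all 8 were among the 21.

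C1q genes were lower on day 2. *C1qb* ran from 10.73 through a median of 11.10 to 11.59 on day 1 and from 9.59 through 9.82 to 10.72 on day 2, a log2 fold change of -1.19 (SE 0.16, adjusted p = 6.35e-06). *C1qc* ran from 10.29 through 10.81 to 11.35 and from 9.52 through 9.67 to 10.10 (-1.07, SE 0.15, adjusted p = 6.38e-06). *C1qa* ran from 8.89 through 9.32 to 10.14 and from 8.57 through 8.74 to 9.07 (-0.47, SE 0.16, adjusted p = 0.0132). The ranges of *C1qb* met almost exactly, at 10.72 in T7 and 10.73 in T1, while those of *C1qa* overlapped. In controls alone the B and C chains fell by 1.37 and by 1.20, and in Tam-Idh1-KI mice by 0.98 and by 0.92.

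Also lower on day 2 were *Olfml3* (-0.67, SE 0.11), *Tmem119* (-0.57, SE 0.16), *Trem2* (-0.49, SE 0.13), *Selplg* (-0.38, SE 0.13), *Cx3cr1* (-0.37, SE 0.11), *Tyrobp* (-0.32, SE 0.14) and *Lst1* (-0.32, SE 0.11), of which *Tyrobp* had the highest adjusted p, 0.0455. For *Olfml3* the days did not overlap, with 9.22 to 9.93 on day 1 and 8.74 to 9.13 on day 2.

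Higher on day 2 were the tetraspanin *Cd53* (1.57, SE 0.16), the growth factor *Csf1* (1.37, SE 0.15), *P2ry12* (1.34, SE 0.17), *Gpr34* (1.23, SE 0.15) and *Laptm5* (1.06, SE 0.10). *Cd53* ran from 6.24 through 6.71 to 7.13 on day 1 and from 7.48 through 8.23 to 8.55 on day 2. *Laptm5* ran from 11.28 through 11.59 to 11.79 and from 12.49 through 12.57 to 12.80. Levels of *Cd53* thus differed 2.98-fold and those of *P2ry12* 2.54-fold. *P2ry12* ran from 7.09 through 7.58 to 8.18 and from 8.69 through 9.05 to 9.28, and *Csf1* from 5.88 to 6.81 and from 7.43 to 8.19. In these 5 genes no array of day 2 lay as low as the highest of day 1. *Cd163* (0.99, SE 0.19), *Ctss* (0.94, SE 0.19), *Lyz1* (0.77, SE 0.18), *Fcrls* (0.56, SE 0.16), *P2ry13* (0.50, SE 0.18) and *Siglech* (0.36, SE 0.13) were higher too, with overlapping ranges. The probes used for genes of the same cells thus read opposite ways between days, *P2ry12* up and *Tmem119* down. A second probe of *P2ry12*, detected on 5 arrays and not kept, gave -0.30 (SE 0.11). Whether the genes or only the probes differed between days was not tested.

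**Figure D4:**
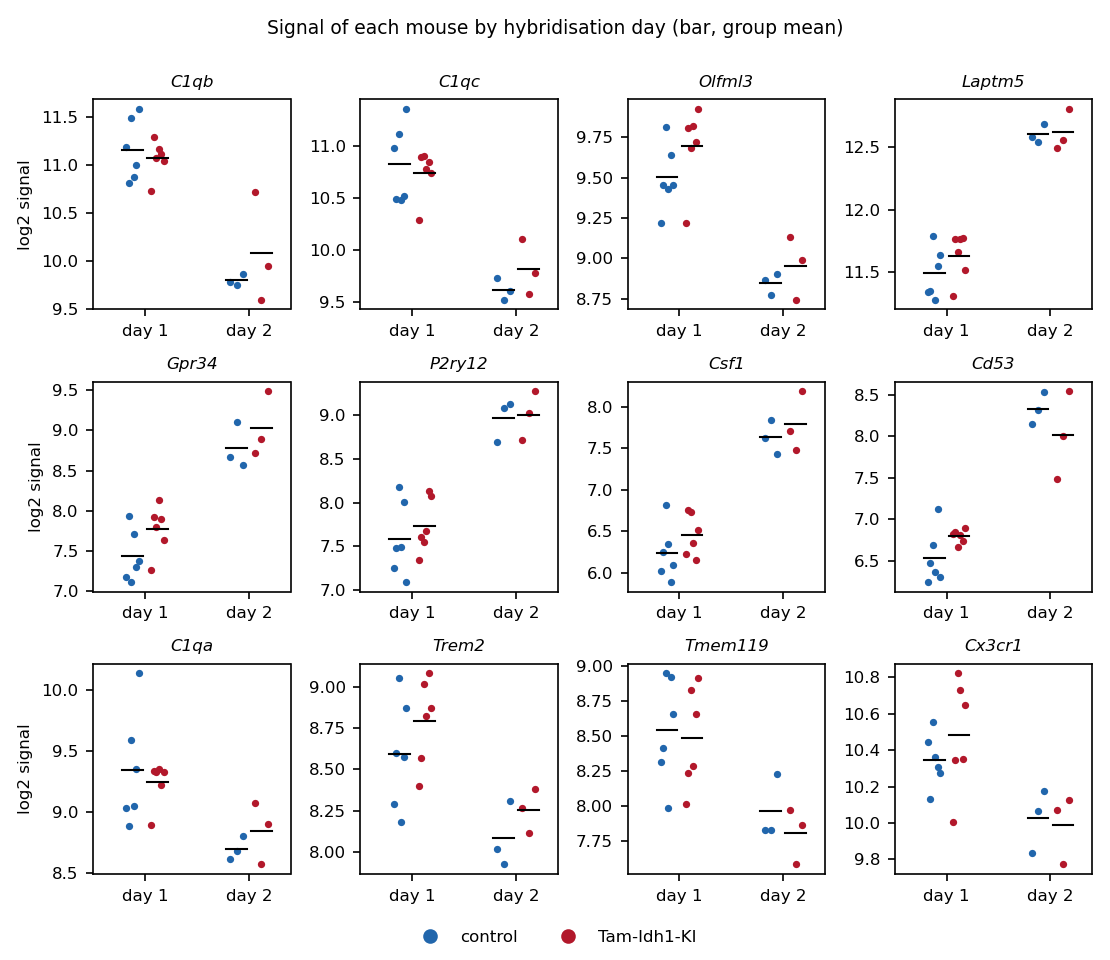
Log2 signal of each mouse on hybridisation day 1 (12 arrays) and day 2 (6 arrays), with control mice in blue, Tam-Idh1-KI mice in red and bars at the means. The first 8 panels are the genes whose days do not overlap, from *C1qb* (-1.19) to *Cd53* (1.57), and the last 4 are *C1qa*, *Trem2*, *Tmem119* and *Cx3cr1*, all lower on day 2.

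Promoters are shown for 2 genes that were lower on day 2 (*C1qb*, *C1qc*) and 2 that were higher (*Laptm5*, *Cd53*), all without overlap, and for *Mrc1*, which had the highest genotype coefficient. They come from RefSeq on build GRCm38.p6 and span 250 bases before to 50 after the start of the gene. Capitals mark matches to GAGGAA, the kind of site that PU.1 binds, or to its reverse complement TTCCTC.
C1qb: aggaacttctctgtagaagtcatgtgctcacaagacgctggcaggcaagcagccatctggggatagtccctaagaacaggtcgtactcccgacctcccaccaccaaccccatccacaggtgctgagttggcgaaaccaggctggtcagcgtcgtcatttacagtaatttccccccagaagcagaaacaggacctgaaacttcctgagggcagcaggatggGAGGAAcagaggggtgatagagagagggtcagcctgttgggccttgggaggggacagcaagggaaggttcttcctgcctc
C1qc: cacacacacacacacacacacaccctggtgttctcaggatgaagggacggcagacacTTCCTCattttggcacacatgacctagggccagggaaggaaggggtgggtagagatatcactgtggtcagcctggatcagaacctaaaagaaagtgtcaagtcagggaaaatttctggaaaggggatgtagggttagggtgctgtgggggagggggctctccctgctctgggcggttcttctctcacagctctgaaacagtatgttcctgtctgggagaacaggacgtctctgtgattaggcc
Laptm5: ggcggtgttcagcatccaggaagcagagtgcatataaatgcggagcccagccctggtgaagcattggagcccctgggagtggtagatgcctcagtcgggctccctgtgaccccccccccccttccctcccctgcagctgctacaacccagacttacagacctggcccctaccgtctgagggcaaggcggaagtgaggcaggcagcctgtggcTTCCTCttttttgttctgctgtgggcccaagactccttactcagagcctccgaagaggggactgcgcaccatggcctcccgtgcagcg
Cd53: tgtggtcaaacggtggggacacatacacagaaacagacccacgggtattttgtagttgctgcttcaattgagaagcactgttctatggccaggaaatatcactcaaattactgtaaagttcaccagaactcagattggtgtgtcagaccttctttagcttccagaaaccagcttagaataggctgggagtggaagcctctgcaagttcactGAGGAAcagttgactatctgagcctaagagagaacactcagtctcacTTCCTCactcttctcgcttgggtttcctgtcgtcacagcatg
Mrc1: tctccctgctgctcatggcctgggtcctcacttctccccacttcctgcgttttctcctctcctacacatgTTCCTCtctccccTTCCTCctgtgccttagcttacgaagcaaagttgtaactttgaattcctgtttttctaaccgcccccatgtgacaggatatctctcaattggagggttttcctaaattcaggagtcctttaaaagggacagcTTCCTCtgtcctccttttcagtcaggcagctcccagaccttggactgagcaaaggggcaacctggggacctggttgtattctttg
*C1qb* (chr4:136886151-136886450) and *C1qc* (chr4:136892865-136893164), both on the minus strand, lie close together. *Laptm5* is at chr4:130913066-130913365 on the plus strand, *Cd53* at chr3:106790100-106790399 on the minus strand and *Mrc1* at chr2:14229164-14229463 on the plus strand. The motif cannot overlap its reverse complement. *C1qb* held 1 match, *C1qc* 1, *Laptm5* 1, *Cd53* 2 and *Mrc1* 3. Promoters matched 33 of the 47 genes, and 19 of them (57.6%) held a match on either strand, against 28.3% of all 32851 promoters of the table. Among genes with a promoter the motif was in 6 of 10 that were higher on day 2 and in 3 of 5 that were lower.

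Probes of the same gene could differ. Of 10 genes with more than 1 kept probe 4 had the same sign for genotype in all of them, and 7 had for day. *Fcrls* gave 0.31, 0.38 and 0.26 between genotypes from its 3 probes, and *Gpr34* gave 0.27 from its brightest probe and 0.42 (SE 0.13) from the other. *Csf1r* gave 0.20 and -0.17, *Csf3r* 0.32 and -0.21, *Unc93b1* 0.29 and -0.021, *Selplg* 0.17 and -0.012, *H2-Ab1* 0.16 and -0.31, and *Aif1* 0.0099 and -0.027. In each of these 6 genes the brightest probe was positive and the other kept probe negative. Averaging the kept probes turned *Aif1* (-0.0084) and *H2-Ab1* (-0.073) negative and left the others above 0. With the mean of the kept probes 31 of the 38 genes were above 0, and the median was 0.11.

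Between days the probes of *Fcrls* gave 0.56, 0.11 and -0.69, those of *Lyz2* -0.087 and 1.48, and those of *Aif1* 0.076 and -0.26. The probes of *Selplg*, *Csf1r* and *Unc93b1* shared a sign but not a size, at -0.38 and -1.38, -0.29 and -1.02, and -0.30 and -1.24. Which transcripts these probes read was not examined. The plot of probes sets the values side by side.

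**Figure D5:**
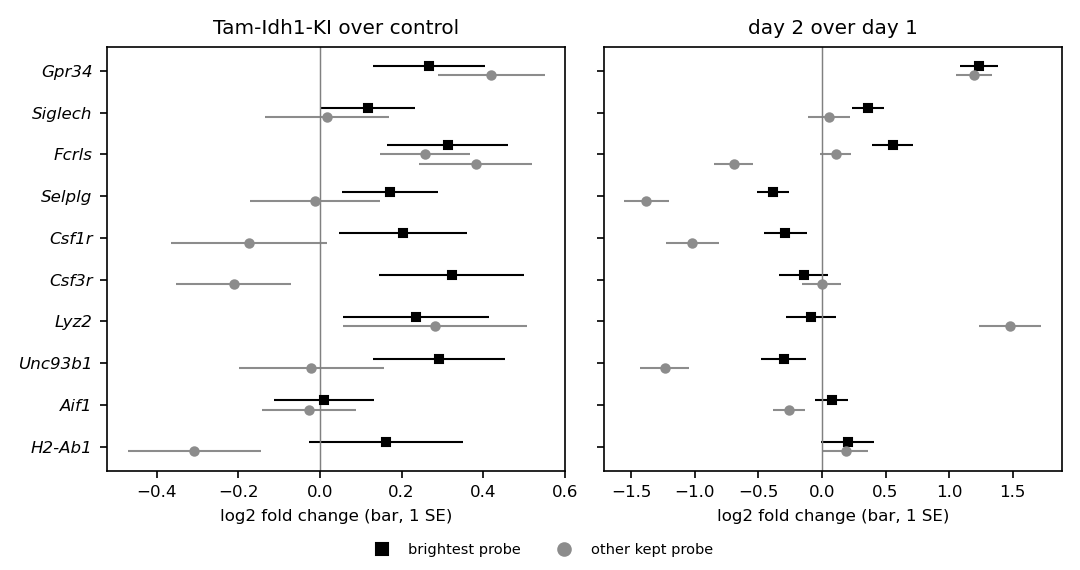
Log2 fold change of every kept probe (bar, 1 SE) of the 10 genes with more than 1, between genotypes (left) and between hybridisation days (right). Squares are the brightest probes, used elsewhere, and circles the others. Probes of *Csf1r*, *Csf3r*, *H2-Ab1*, *Selplg*, *Unc93b1* and *Aif1* lie on opposite sides of 0 on the left. Those of *Fcrls*, *Lyz2* and *Aif1* do so on the right.

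Sex and the interactions added little. None of the 38 genes passed between females and males, where 3 genes (0.0262%) passed in all, and 0 had an unadjusted p under 0.05 against 3.43% of all genes. Coefficients of sex ran from -0.23 for *Tyrobp* to 0.21 for *Cd83*. No gene of the array passed the genotype by day interaction (0%), where 0 of the 38 genes and 2.9% of all genes had an unadjusted p under 0.05. The methods' t-test has no such term. For genotype by sex 1 gene passed in all (0.00872%), not of this list. Of the 38 genes *F13a1* alone had an unadjusted p under 0.05 (-1.07, unadjusted p = 0.0013, adjusted p = 0.997), against 3.38% of all genes.

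Genes around the listed ones were counted by lists of related function. Of 22 other microglia genes measured, 15 had positive coefficients with a median of 0.093, and none passed. *Sall1*, a transcription factor of microglial identity that neural progenitors also express, stood at 0.25 (SE 0.087, adjusted p = 0.333), *Tgfbr2*, a TGF-beta receptor, at 0.34 (SE 0.12, adjusted p = 0.349) and *P2ry6*, a UDP receptor, at 0.25 (SE 0.14, adjusted p = 0.624). For *Tgfbr2* 9 of 9 Tam-Idh1-KI mice lay above the control mean of their day.

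Of 18 measured genes that activated microglia raise, 9 were positive and 9 negative, and 1 passed. *Gpnmb*, a lysosomal glycoprotein of phagocytes and melanocytes, ran from 5.58 through 5.95 to 6.96 in Tam-Idh1-KI mice and from 6.35 through 7.02 to 8.14 in controls, a log2 fold change of -1.07 (SE 0.18, adjusted p = 0.0194), with 0 of 9 Tam-Idh1-KI mice above the control mean of their day. The call was lost without T3, C1 or C8 (adjusted p = 0.0531, 0.0589 and 0.0626) and in 5 other alternative fits, among them that with the replicate number as a block (adjusted p = 0.0661). Without background correction the coefficient was -0.47 (adjusted p = 0.0331). *Lgals3* (galectin-3) stood at 0.49 (SE 0.19, adjusted p = 0.406) and *Cd63*, a lysosomal tetraspanin, at 0.19 (SE 0.086, adjusted p = 0.508). The other measured genes of that programme did not pass.

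Among 16 measured genes of signalling below TREM2, the Fc receptors and the CSF1 receptor 12 were positive, with a median of 0.069 and none past the threshold. *Clec4a3*, a C-type lectin receptor, stood at 0.45 (SE 0.17, adjusted p = 0.421), *Grb2*, an adaptor of growth factor receptors, at -0.34 (SE 0.18) and *Dok3*, an inhibitory adaptor of immune receptors, at 0.25 (SE 0.17). Of 8 measured complement genes beyond C1q 6 were positive and none passed, with a median of 0.22. *Serping1*, the C1 inhibitor, ran from 7.61 through 8.11 to 8.53 in Tam-Idh1-KI mice and from 7.06 through 7.41 to 8.06 in controls (0.60, SE 0.17, adjusted p = 0.203), with 9 of 9 Tam-Idh1-KI mice above the control mean of their day. *Cd55*, a brake on C3 convertases, stood at 0.37 (SE 0.13, adjusted p = 0.353) and *Masp1*, a protease of the lectin pathway, at 0.28 (SE 0.12, adjusted p = 0.464). None of these 3 is specific to microglia.

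Class II loading and co-stimulation genes were split, 6 of 11 positive, with *Icam1*, an adhesion ligand, at 0.39 (SE 0.18, adjusted p = 0.509), *Cd86* at 0.31 (SE 0.20) and *Cd80* at -0.21 (SE 0.15), both ligands of the T cell receptor CD28. Of 17 measured Toll-like receptor and cytokine genes 13 were positive, with a median of 0.056, a highest coefficient of 0.30 for *Ly96* (MD-2, the partner of TLR4) and none past the threshold. *Tlr7*, a receptor for single-stranded RNA, and *Il18*, an interleukin of the inflammasome pathway, stood at 0.18 (SE 0.11) and 0.13 (SE 0.080).

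Other leukocytes left little signal. Of 10 neutrophil markers 1 was measured, *S100a8*, at -1.02 (SE 0.33, adjusted p = 0.291, detected on 12 arrays), of 11 T and NK cell markers 1, *Cd4*, at -0.20 (SE 0.18), of 9 B cell markers 0 and of 11 monocyte and dendritic cell markers 2. Of 8 erythroid markers 5 were measured and all 5 were negative, from -0.36 to -0.17, without passing. Markers of other brain cells were counted in the same way. All 8 measured stem cell and progenitor markers were positive (median 0.28), with *Dcx* (doublecortin, of neuroblasts) at 0.63 (SE 0.17, adjusted p = 0.171) and *Vim* (vimentin) at 0.45 (SE 0.16). Of ependymal markers 8 of 9 (median 0.15), of oligodendrocyte markers 8 of 9 (median 0.15) and of endothelial markers 10 of 11 (median 0.069) were positive, as were 5 of 10 astrocyte markers (median -0.017) and 3 of 6 mural cell markers (median -0.028), while 7 of 10 neuron markers and 5 of 7 choroid plexus markers were negative (medians -0.078 and -0.095). An unadjusted p under 0.05 was held by 5 of 8 stem cell and progenitor markers and 4 of 9 ependymal markers. For astrocytes it was 4 of 10, against 9.57% of all genes. For mural cells it was 2 of 6, for choroid plexus 2 of 7 and for endothelial cells 1 of 11. For oligodendrocytes it was 1 of 9 and for neurons 0 of 10. Of the 4 astrocyte markers *Slc1a2* (-0.22, SE 0.085), *Fgfr3* (-0.45, SE 0.19) and *Gjb6* (-0.26, SE 0.12) were negative, and *Aqp4* (0.27, SE 0.13) was positive. The choroid plexus markers with the lowest p, *Folr1* (0.51, SE 0.15, adjusted p = 0.256) and *Sostdc1* (0.28, SE 0.12), were positive. The mean difference of that list was -0.13 on day 1 and 0.43 on day 2. The part of all these cell types in the microglia and macrophage values was not tested.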

How the data were processed

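Signal was measured on Illumina MouseWG-6 v2 BeadChips from SVZ RNA of 18 mice, 1 array each. The authors deposited a bead signal intensity and a detection p-value per probe, before normalization; the submitters' processing notes name GenomeStudio (version not given in the sources used here). Log2 values processed by the authors, with no normalization stated, served as an alternative. Intensities were corrected, quantile normalized and log2 transformed with neqc of limma 3.58.1 (R 4.3.3, offset 16). Of 45281 probes 34885 carried 1 gene symbol, 18 several and 10378 none. The detection filter and the choice of the brightest probe, given above, left 11465 genes. Coefficients of genotype, hybridisation day and sex, and their interactions, were fitted with lmFit and eBayes, with Benjamini-Hochberg adjustment over all genes. Differences between genotypes within a day are of plain group means, without a sex term. Each replicate is a separate mouse. The paper describes paired littermates, while the labels number the mice and name no litters. Deviations of same-numbered arrays from their group means correlated above 0.1 in 9 of 9 pairs (mean 0.481). A number also stands for 1 day in both groups, and within days 4 of 9 pairs did so (mean 0.050), so a block by number was fitted as an alternative. The number of arrays limits the precision. All members are given, and from each other list the genes called and up to 3 with the lowest p (2 for cell types, 4 for astrocytes). The list, its groups and the other gene lists were chosen with earlier results of these data known. Alternatives changed the normalization, the background, the filter, the probe, the covariates, the array weights, the day used, the replicate number as a block, the methods' t-test and each array left out.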

Additional observations from a re-analysis of the deposited data

Results flagged for a closer look

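Within-group gaps were examined for the 38 genes in each genotype, 76 groups of 9 mice, of which 2 held a value far from the others. Chance sets such a value apart in about 1 group in 20 of samples from a normal distribution. That rate need not hold here, since each group joins 2 hybridisation days. *P2ry13* was 7.34 in Tam-Idh1-KI replicate 1, below the other 8 Tam-Idh1-KI mice at 8.40 to 8.92. *Aif1* was 8.85 in control replicate 3, above the other 8 controls at 8.05 to 8.43.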

How the results depend on the processing

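None of the 38 genes was called between genotypes under any of 31 alternatives. The smallest adjusted p of a member was 0.0904 (*P2ry13* without T1). Of 1172 values of single genes 1092 kept their sign and 80 turned it, and 24 of 38 genes kept it throughout. The median of the 38 ran from 0.095 to 0.24, and from 0.10 to 0.20 with 1 array left out.

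Values that turned were small, apart from *Cd53*. With the replicate block, 29 of 38 were positive (median 0.13), and *C1qa*, *C1qb*, *C1qc* and *Aif1* stood at -0.052, -0.060, -0.085 and -0.043. *C1qa* was -0.015 without covariates and in the methods' t-test. With age added to the model, 32 of 38 were positive (median 0.12) and 0 had an unadjusted p under 0.05. In that fit *P2ry12* was -0.0016, *Cd53* -0.027 and *Cd14* 0.036. Median scaling gave *Tmem119* 0.063, *Ctss* 0.11, *Cd14* 0.077 and *Lst1* 0.069. The authors' values gave *Ctss* 0.0056, no background correction *C1qc* -0.0033, and the mean of probes *Aif1* -0.0084 and *H2-Ab1* -0.073. Array weights gave *Ctss* 0.14, *Cd14* 0.082 and *Cd83* -0.055. Each day alone was fitted without a sex term. The first day alone gave *C1qa* -0.097, *C1qb* -0.092, *C1qc* -0.083, *Lst1* 0.011 and *Cd83* -0.050. The second alone gave *Cx3cr1* -0.034, *Cd53* -0.32, *Cd14* 0.12 and *Cd163* -0.061. With 1 array left out *Aif1* ran from -0.040 to 0.093, *C1qa* from -0.050 to 0.11, *C1qb* from -0.070 to 0.092, *C1qc* from -0.070 to 0.083, *Cd14* from -0.090 to 0.063, *Cd83* from -0.13 to 0.060, *Ctss* from -0.12 to 0.10 and *Tmem119* from -0.12 to 0.041. *Gpnmb* ran from -1.14 to -0.96 with 1 array left out and from -1.41 (second day) to -0.47 (no background correction) over all alternatives. It was not called with the block, without covariates, on the first or second day alone or in the t-test (adjusted p = 0.0661, 0.124, 0.204, 0.434 and 0.284). The cause was not tested.

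Over all genes 20 calls became 8 with the block, 8 without covariates, 61 with array weights, 4 on the first day, 0 on the second (959 unadjusted), 3 in the t-test and 4 to 37 with 1 array left out. Genotype by sex lost its 1 call (0) with median scaling and the authors' values, and ran from 0 to 1 with 1 array left out, as did genotype by day. Beyond the all-gene count and *Gpnmb*, the replicate block changed no genotype call among the 38 genes. Signals near background limit *Spi1*, *F13a1*, *Csf3r*, *Cd163*, *Cd74* and *H2-Ab1*.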
